A study of Mus musculus with 4 samples.

Results

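The genes described here are 10 members of the AIM2 family and of the inflammasome pathway: Aim2, Ifi202b, Ifi203, Ifi204, Ifi205, Mnda, Nlrp3, Casp1, Casp4 and Pycard. They were taken by the gene name given to each non-control spot of the arrays, with every probe of each gene, and 9 of the 10 names were found, with 16 probes among them, out of 23633 genes and 33675 probes tested. Ifi205 has no spot under its own name. The single Mnda probe lists transcripts of 2 genes in RefSeq, Ifi211 and Ifi205, so its value cannot be assigned to one of them. The group was chosen by the measured levels of Aim2 and Ifi202b on these arrays, which had been seen to differ without following genotype. Their array levels are therefore given as a description, without a test.

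RNA came from the ears of 4 mice, 1 array each, 48 h after treatment with 2,4-dinitrofluorobenzene (DNFB), a hapten that causes contact allergy. The 2 wild-type mice were RelAfl/fl, with the floxed RelA allele and no recombinase. The 2 mutant mice, labelled RelAE-MUT, were K14Cre RelAfl/fl, so that the recombinase runs from the keratin 14 promoter of basal keratinocytes and RelA, a subunit of NF-kB, is lost there. All 4 mice carried the floxed allele and all 4 were treated, and an untreated ear is not analysed here. Strain background, age and litter of the mice are not given in the sources used here. The promoter leaves RelA in fibroblasts, immune cells and other cells of the ear that do not use it, and an effect of the recombinase and one of the lost RelA cannot be told apart. At the single Rela probe that was used, log2 of the intensity over the 75th percentile of the array was 4.48 and 4.60 (wild types) against 4.59 and 4.72 (mutants), so the mutants were not lower. Whether this probe lies in the deleted part is not given in the sources used here, so it does not check the labels.

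AIM2-like receptors bind DNA through a HIN domain, and most of them also carry a pyrin domain. When AIM2 meets double-stranded DNA in the cytosol, it recruits the adaptor ASC, which Pycard encodes, and ASC gathers pro-caspase-1 into an inflammasome. Active caspase-1 matures IL-1β and IL-18 and cuts gasdermin D, whose pores kill the cell. NLRP3 builds the same kind of complex in response to many forms of cell stress, and mouse caspase-11, which Casp4 encodes, responds to bacterial lipopolysaccharide. Ifi202b encodes p202, which has HIN domains but no pyrin domain and can antagonise AIM2, and its expression is known to differ between inbred mouse strains. Many genes of the family are induced by interferon, and macrophages and other myeloid cells are a main source of them.

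The 5 members of the family that were measured lie together on chromosome 1, between 175396036 and 175893982 of mouse build mm9, a stretch of 498.0 kb. Exon, intron or UTR could not be assigned to the probes, since no annotation of this build was at hand. The following probe sequences, 5′ to 3′ as deposited, are those on which the array differences rest, namely the single Aim2 probe, both Ifi202b probes and those 2 of the 4 Ifi203 probes that put the arrays in opposite order. The number after a gene's name ranks its probes from the highest mean level.
Aim2 probe 1: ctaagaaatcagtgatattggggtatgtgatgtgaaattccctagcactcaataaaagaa
Ifi202b probe 1: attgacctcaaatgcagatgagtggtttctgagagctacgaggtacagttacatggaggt
Ifi202b probe 2: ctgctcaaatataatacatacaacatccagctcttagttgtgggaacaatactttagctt
Ifi203 probe 1: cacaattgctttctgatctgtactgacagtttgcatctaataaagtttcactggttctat
Ifi203 probe 3: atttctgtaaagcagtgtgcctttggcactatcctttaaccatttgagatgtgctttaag
The Aim2 probe lies at chr1:175396036-175396095 on the plus strand. Ifi202b probe 1 lies at chr1:175892953-175893982 and probe 2 at chr1:175892789-175892848, both on the minus strand. The 60 bases of Ifi202b probe 1 reach over 1030 bases of the reference, while those of probe 2 lie on 60. Ifi203 probe 1 lies at chr1:175850536-175850595 and probe 3, whose 60 bases span 59 on the reference, at chr1:175852372-175852430, both on the minus strand.

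Ifi202b had by far the widest spread among the members. At probe 1 its deposited intensity was 11249 in wild-type mouse 1 and 9151 in mutant mouse 2, but 1433 in wild-type mouse 2 and 1532 in mutant mouse 1. Levels are given from here on as log2 of the intensity over the 75th percentile of the same array, always for mouse 1 and then mouse 2 of a genotype. On this scale Ifi202b stood at 4.08 and 1.20 (wild types) against 1.31 and 3.96 (mutants). Each genotype thus held 1 high and 1 low array, and the 2 high arrays differed from each other far less than from the low ones. The highest array was 7.37-fold above the lowest, a range of 2.88 on the log2 scale. Probe 2 gave the same order, with 3.79 and 1.49 (wild types) against 1.53 and 3.69 (mutants), a 4.91-fold range. Both probes were well above background on all 4 arrays, so that a signal was measured in the low mice too. Whether the probes also bind transcripts of related genes was not tested.

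Aim2 was a dim gene with the same 2 arrays on top. Its single probe stood at -2.49 and -3.86 (wild types) against -3.38 and -2.49 (mutants). The 2 high arrays were again wild-type mouse 1 and mutant mouse 2, 2.58-fold above wild-type mouse 2, the lowest. The intensities behind these levels were 118, 43.0, 59.5 and 105 in the same order of mice, close to the array medians of 47.2 to 54.6, and the spot lies in the last of 384 rows of the array. Another correction of the background was normexp on the raw signal, with an offset of 50 added to each value. With it the range of Aim2 went from 1.37 to 0.70 on the log2 scale, while that of Ifi202b was 2.85. An offset alone narrows the range of a probe this dim, and the part of the offset was not separated from that of the background removal.

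Aim2 and Ifi202b were chosen for their spread between arrays, so their places among all genes are a description of that choice. Of 22626 genes above background on 4 arrays, 470 (2.08%) had a range at least as large as that of Aim2 and 110 (0.486%) one at least as large as that of Ifi202b, and the median range was 0.30. A 2-against-2 pattern can also be read from the gap between the second and the third array. This gap was 0.89 for Aim2, reached by 90 genes (0.398%), and 2.65 for Ifi202b, reached by 5 genes (0.0221%). Besides Ifi202b these were Gm7897, the transcripts 2610507I01Rik and 6330403K07Rik, and a probe without a gene name, A_55_P2050722, all named after their values were seen. Of these, 2610507I01Rik was high in both wild types and 6330403K07Rik in both mutants, and both lie on chromosome 11. Gm7897 lies within the same cluster as Ifi202b on chromosome 1. For A_55_P2050722, which has no position in the files, the high arrays were also wild-type mouse 1 and mutant mouse 2 (-0.79 and -1.53, against -4.50 in wild-type mouse 2 and a still lower level in mutant mouse 1).

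**Figure D1:**
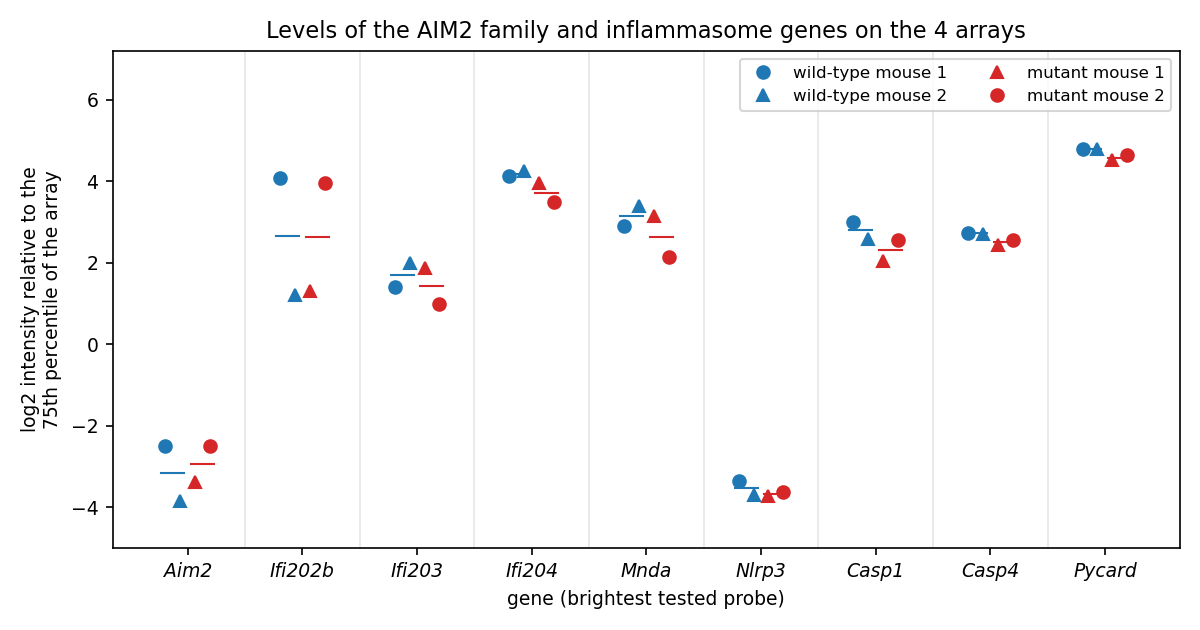
Level of each measured member at its brightest probe on each of the 4 arrays, as log2 of the intensity over the 75th percentile of that array; blue marks wild-type and red mutant mice, circles wild-type mouse 1 and mutant mouse 2, triangles the other two, and short lines the mean of each genotype (2 mice). Ifi202b stood near 4 in the mice drawn as circles and between 1.20 and 1.31 in those drawn as triangles, and Aim2 followed the same order at lower levels; levels of different genes cannot be set against each other.

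The 4 arrays can be divided 2 against 2 in 3 ways: by genotype, by the replicate number of the labels, and by the crossed pairs of wild-type mouse 1 with mutant mouse 2 against the other two. For Ifi202b the differences of means were -0.01 for mutants minus wild types, -0.11 for mice 2 minus mice 1 and 2.77 for the crossed pairs. For Aim2 they were 0.24, -0.24 and 1.13. Over the 9 measured members the crossed pairs gave the largest difference for 5 (Aim2, Ifi202b, Ifi203, Mnda and Nlrp3) and genotype for 4 (Ifi204, Casp1, Casp4 and Pycard), and the replicate number for 0. Among all 23633 genes the largest difference fell to the crossed pairs for 33.5%, to genotype for 36.3% and to the replicate number for 30.2%. Aim2 and Ifi202b, 2 of the 5, were chosen because their levels did not follow genotype, so nothing is read from these counts. A range over 1, found in 4.2% of the genes above background on 4 arrays, was seen in Ifi203 and Mnda and in Aim2 and Ifi202b, the last 2 of which were chosen for their spread, so that nothing is read from this count. No p is given for these differences, and an exact two-sided permutation of 2 against 2 arrays could not go below 0.333.

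**Figure D2:**
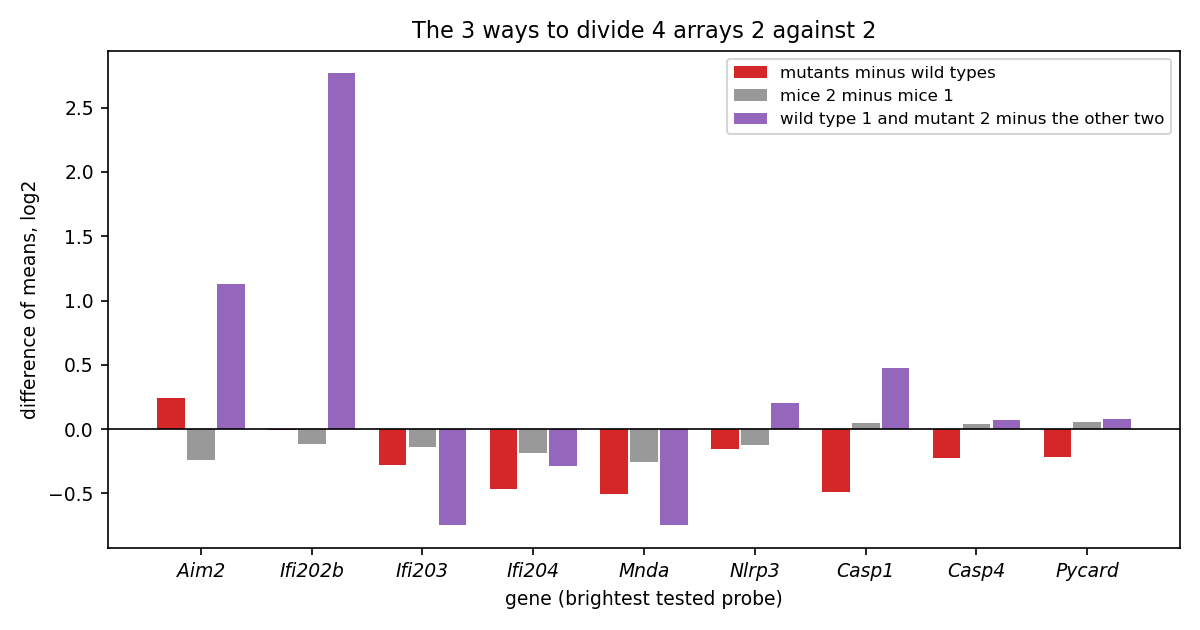
Difference of mean log2 levels for each member (brightest probe) under the 3 ways to divide the 4 arrays 2 against 2: red bars mutants minus wild types, grey bars mice 2 minus mice 1, purple bars wild-type mouse 1 and mutant mouse 2 minus the other two. The purple bars of Ifi202b (2.77) and Aim2 (1.13) rise above all others, while Ifi203, Ifi204 and Mnda have purple bars below 0.

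Ifi203, another HIN-domain gene of the cluster, gave a different order at each of its 4 probes. At the brightest, probe 1, it stood at 1.39 and 2.00 (wild types) against 1.86 and 0.97 (mutants), so that the arrays high for Ifi202b were here the low ones. At probe 3 they were the high ones, with -2.62 in wild-type mouse 1 and -2.78 in mutant mouse 2 against -3.73 in wild-type mouse 2 and -4.18 in mutant mouse 1. Probe 2 was highest in wild-type mouse 1 (0.49, with 0.04, -0.26 and -0.05 in wild-type mouse 2 and mutant mice 1 and 2), and probe 4, the dimmest, kept within 0.58 over all arrays. The probes lie within 3.7 kb and disagree on which arrays are high, although all 4 had a lower mean in the mutants. No single level of Ifi203 can therefore be given for a mouse.

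Mnda, another gene of the family, was lowest in mutant mouse 2. It stood at 2.89 and 3.38 (wild types) against 3.13 and 2.13 (mutants), with the level of mutant mouse 1 between those of the wild types. Ifi204, which encodes p204, a relative of human IFI16, had both mutants below both wild types, with 4.14 and 4.24 (wild types) against 3.95 and 3.48 (mutants). Its second probe gave 2.78 and 2.72 against 2.36 and 2.10 in the same order. The log2 fold change of Ifi204, mutant minus wild type, was -0.47 ± 0.19 (limma's moderated SE, n = 2 mice per genotype), with a limma adjusted p of 0.79. It was -0.23 without mutant mouse 2 and -0.71 without mutant mouse 1.

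**Figure D3:**
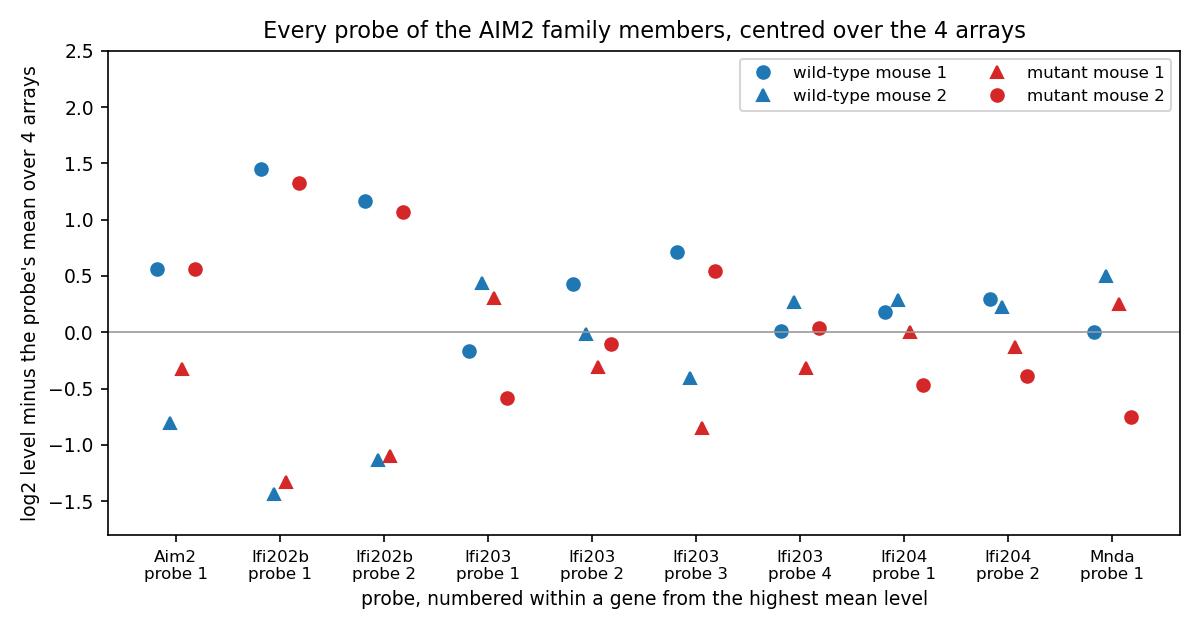
Every probe of the 5 family members on chromosome 1, as the log2 level on each array minus the probe's mean over the 4 arrays; blue marks wild-type and red mutant mice, circles wild-type mouse 1 and mutant mouse 2, triangles the other two. The circles lie above the triangles for Aim2, both Ifi202b probes and Ifi203 probe 3 and below them for Ifi203 probe 1 and Mnda, and mutant mouse 2 is the lowest for both Ifi204 probes.

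The other genes of the family share the locus. Of 16 names looked for, several of them older and newer names of 1 gene, 7 were on the array and all 7 were tested: Gm4955, BC094916, Pydc4, Mndal, Pyhin1, Pydc3 and AI607873, the last of which RefSeq now calls Ifi207. All 7 had a lower mean in the mutants, by a median log2 fold change of -0.42 against 0.01 over all genes, and 0 passed limma's adjusted threshold of 0.05, with 3 at an unadjusted p under 0.05. Over all genes the threshold was passed by 0.0169%, and an unadjusted p under 0.05 was reached by 6.51%. BC094916 had the largest change, -0.93 ± 0.30 (limma adjusted p = 0.725), with -2.62 and -3.48 (wild types) against -3.99 and -3.97 (mutants). Gm4955 (-0.59, 0.13, -0.25 and -1.55 over the 4 mice), Pydc4 (-3.14, -2.75, -2.79 and -3.95) and Mndal (1.37, 1.91, 1.73 and 0.78) were lowest in mutant mouse 2, with mutant mouse 1 between the wild types. At the dimmer Pydc4 probe both mutants lay below both wild types, with -4.02 and -4.51 (wild types) against -5.01 and -5.39 (mutants). Of the 15 probes of these 7 genes, 14 were lowest in mutant mouse 2, against 4 of the 10 probes of Aim2, Ifi202b, Ifi203, Ifi204 and Mnda.

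That array was the lowest for most of the cluster and not for its surroundings. Between the Aim2 and Ifi202b probes, 37 of 52 tested probes (71.2%) were lowest in mutant mouse 2, against 16 of 61 (26.2%) in the 2 Mb on either side and 22.2% of all 33675 tested probes. In the cluster 24 probes (46.2%) had a range over 1, against 4 (6.56%) in the flanks and 6.5% of all tested probes. Both wild types were the 2 highest arrays at 31 of the 52 probes (59.6%, against 21.3% in the flanks and 17.6% of all). Wild-type mouse 1 and mutant mouse 2 were the 2 highest arrays at 6 of the 52 probes (11.5%, against 15.9% of all), and wild-type mouse 2 and mutant mouse 1 at 12 (23.1%, against 17.5%). The Aim2 probe and both Ifi202b probes, whose levels chose the group, are among these 6 and among the 24 with a range over 1. Nothing is read from the share of the 6. Many of the cluster probes tile the same transcripts, so that they are not independent of each other. The summed level of 11 tested macrophage markers, all above background on the 4 arrays, was also lowest in mutant mouse 2, at 6.82, with 6.96 in mutant mouse 1 and 7.13 and 7.07 in wild-type mice 1 and 2. The sums of the neutrophil (6.95), dendritic and Langerhans cell (7.44) and B cell markers (0.09) were lowest in the same mouse. The dendritic sum was 7.45 in wild-type mouse 1, and not all single markers of these lists were lowest in mutant mouse 2. The part of these cells in the differences was not tested. In whole ears, fewer cells of a type and less RNA per cell cannot be told apart.

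Within the cluster, Gm7897 parted the arrays more widely than Ifi202b. Its probe (chromosome 1, 175754800 to 175754859) stood at 0.78 and -3.48 (wild types) against -3.49 and 0.91 (mutants), with the same 2 arrays high and a 21.0-fold range. The probe lies in the corner that is damaged on the array of mutant mouse 2, one of the high arrays, and the part of the damage in its level there was not tested. A further probe without a gene symbol, 7.2 kb away (175762027 to 175762085), had -0.54 in wild-type mouse 1 and -0.47 in mutant mouse 2 and was not well above background in the other two. It was above background in only 1 mouse of each genotype and so was not among the probes tested, and it was singled out after its values were seen. Among the other genes within 2 Mb, Vsig8, an immunoglobulin-domain gene of the hair shaft 1.4 Mb away, had 1.65 and -1.46 (wild types) against 0.11 and 2.38 (mutants). The probe A_55_P2177073, in the cluster, had 0.56, -0.61, -0.94 and -0.08 in the same order, and Rgs7, 1.1 Mb beyond Ifi202b, was lowest in mutant mouse 2 (-5.16, with -4.22, -4.17 and -3.90 in the others).

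**Figure D4:**
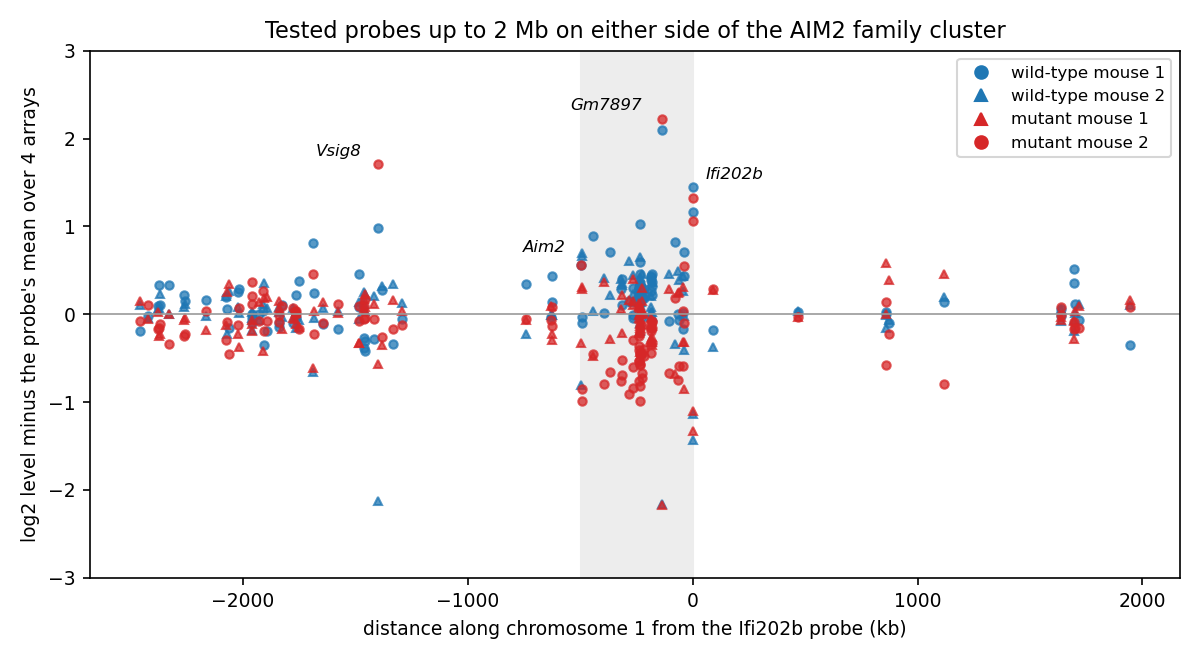
Tested probes between 2 Mb before and 2 Mb after the cluster, placed by their distance along chromosome 1 from the lower-lying Ifi202b probe, with the log2 level on each array minus the probe's mean over the 4 arrays; blue marks wild-type and red mutant mice, circles wild-type mouse 1 and mutant mouse 2, triangles the other two, and the grey band the stretch from Aim2 to Ifi202b. In the band the red circles of mutant mouse 2 are the lowest for 37 of 52 probes, and Gm7897 and Ifi202b have both circles far above both triangles.

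The tested genes with a full symbol whose centred levels over the 4 arrays came closest to those of Ifi202b were Krtap12-1 (root mean square difference 0.45 on the log2 scale), Krt82 (0.46), Ctse (0.50), Vsig8 (0.60) and Krtap17-1 (0.65). All but Ctse, which encodes cathepsin E, are genes of the hair follicle. Of 46 tested Krtap genes, which encode proteins of the hair shaft and were counted after this was seen, 31 had wild-type mouse 1 and mutant mouse 2 as the 2 highest arrays, against 15.5% of all tested genes. Their median centred levels were 0.39 and -2.39 (wild types) against -0.01 and 2.01 (mutants), so that the mice low for Ifi202b, 0.10 apart at its probe 1, were 2.38 apart for these genes. The part of hair growth in the Ifi202b level was not tested. Aim2 was most like Pdxdc1 (0.03), Abpa (0.14), Tigit (0.16), Stc2 (0.16) and Crmp1 (0.16), on chromosomes 16, 7, 16, 11 and 5. In all 14570 genes were compared, over 4 arrays each.

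Of the inflammasome genes proper, the adaptor, both caspases and the sensor Nlrp3 had lower means in the mutants, and 0 passed the test. Over the 9 measured members, limma called 0 at an adjusted p of 0.05 over all genes, against 0.0169% of all genes, and 0 had an unadjusted p under 0.05. The mutant mean was below the wild-type mean for each of these 7, against 46.5% of all genes. The median log2 fold change, with Aim2 and Ifi202b included, was -0.22. For 4 of the 7 (Ifi204, Casp1, Casp4 and Pycard) both mutants lay below both wild types, against 17.4% of all genes. The adjusted p of the 7 members other than Aim2 and Ifi202b lay between 0.79 and 0.914.

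Pycard, the adaptor, stood at 4.80 and 4.78 (wild types) against 4.51 and 4.64 (mutants). The genotypes did not overlap, but the difference of -0.21 ± 0.11 had a limma adjusted p of 0.846. Casp4 behaved alike at both of its probes, with 2.73 and 2.70 against 2.44 and 2.55 at probe 1 and 2.34 and 2.41 against 2.12 and 2.16 at probe 2 (wild-type mice, then mutant mice). Its log2 fold change was -0.22 ± 0.11 (limma adjusted p = 0.835). Probe 2 lies in a corner that is damaged on the array of the second mutant, while probe 1 lies outside it.

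Casp1, the caspase that both AIM2 and NLRP3 activate, stood at 3.01 and 2.58 (wild types) against 2.04 and 2.57 (mutants). Wild-type mouse 2 and mutant mouse 2 were only 0.01 apart, the genotypes just did not overlap, and the log2 fold change of -0.49 ± 0.25 had a limma adjusted p of 0.843. With 1 mouse left out it lay between -0.22 (without mutant mouse 1) and -0.75 (without mutant mouse 2). Nlrp3 was dim at both probes. At the brighter it stood at -3.37 and -3.69 (wild types) against -3.72 and -3.64 (mutants), with a log2 fold change of -0.15 ± 0.15 (limma adjusted p = 0.886). Wild-type mouse 1 alone was high, and without it the difference was 0.01. At the dimmer probe both mutants lay below both wild types, within a range of 0.70. The brighter Nlrp3 probe lies on chromosome 11 at 59378554, near 2610507I01Rik (59011304), which was high in both wild types. The part of this position in the Nlrp3 levels was not tested. For the family members, Ifi203 (-0.28 ± 0.37) turned to 0.03 without wild-type mouse 2 and to 0.17 without mutant mouse 2, and Mnda (-0.50 ± 0.38) went to -0.01 without mutant mouse 2 and to -1.004 without mutant mouse 1.

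Other sensors that can start an inflammasome were given by a fixed list, of which 8 of 11 genes were tested. Limma called 0 of them, against 0.0169% of all genes, and 2 had an unadjusted p under 0.05, against 6.51%. A lower mean in the mutants was found for 6 of 8, against 46.5% of all genes, and the median log2 fold change was -0.25. Nlrp1b, a sensor of proteases and anthrax lethal factor, had the largest change, with -1.23 and -1.59 (wild types) against -2.88 and -2.53 (mutants) (-1.29 ± 0.20, limma adjusted p = 0.393). Its probe lies on chromosome 11 at 70966612, near 6330403K07Rik (70845694), which was high in both mutants. Nlrp1a, singled out after its values were seen, lies between them and had 0.03 ± 0.12 (limma adjusted p = 0.977). The part of this position in the Nlrp1b difference was not tested. Nlrc4, which acts with the NAIP receptors of bacterial flagellin, had -3.48 and -3.64 against -3.86 and -4.38 in the same order (adjusted p = 0.767 by limma). Nlrp10 did not follow genotype, with -0.33 and -0.97 (wild types) against -0.91 and -0.36 (mutants), and Mefv, which encodes pyrin, had 2.03 and 2.04 against 1.97 and 1.58.

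Of 12 regulators of inflammasomes, all tested, limma called 0, against 0.0169% of all genes. An unadjusted p under 0.05 was reached by 4, against 6.51% of all genes, and the median log2 fold change was -0.19. The guanylate-binding proteins, interferon-induced GTPases that open vacuoles of bacteria to AIM2 and caspase-11, gave 3 of the 4 largest ranges. Gbp2 stood at 4.83 and 4.82 (wild types) against 3.62 and 4.30 (mutants) (-0.87 ± 0.25, limma adjusted p = 0.671). Gbp3 (-0.58 ± 0.19, limma adjusted p = 0.725) and Gbp5 (-0.51 ± 0.15, limma adjusted p = 0.673) were lowest in mutant mouse 1 too, as were Casp1, Casp4 and Pycard. Casp12 had -0.26 ± 0.24. The summed level of 8 T cell markers was lowest in the same mouse, at 4.32, with 4.72 and 4.49 in wild-type mice 1 and 2 and 4.52 in mutant mouse 2, and its part was not tested.

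Among the products and antagonists downstream, 7 of the 8 genes on the array were tested. Limma called 0, against 0.0169% of all genes, and 2 had an unadjusted p under 0.05, against 6.51%. Il1b, the main substrate of caspase-1, was highest in mutant mouse 1 (3.07) and lowest in mutant mouse 2 (1.78), with 2.35 and 2.68 in the wild types. Gsdmd, the pore former, had 1.85 and 1.76 against 1.45 and 1.52 in the mutants (-0.32 ± 0.11, limma adjusted p = 0.737). The IL-18 antagonist Il18bp had -0.45 ± 0.15 (limma adjusted p = 0.725), and the decoy receptor Il1r2 -0.42 ± 0.18 (limma adjusted p = 0.799). Il18, the other cytokine that caspase-1 matures, had 3.53 and 3.54 (wild types) against 3.80 and 3.76 (mutants), a difference of 0.25 ± 0.10 (limma adjusted p = 0.79), and was singled out after its values were seen. The genotypes did not overlap for Gsdmd, Il18bp and Il1r2, lower in the mutants, nor for Il18, higher in the mutants, as for 36.3% of all genes in either direction.

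Of 14 tested genes that sense nucleic acids in the cytosol, limma called 0, against 0.0169% of all genes. An unadjusted p under 0.05 was reached by 1, against 6.51% of all genes, and the median log2 fold change was -0.04. Zbp1, a sensor of Z-form nucleic acids, had -0.44 ± 0.16 (limma adjusted p = 0.749), the RNA helicase gene Ifih1 0.38 ± 0.17 (0.798), Ddx58, which encodes RIG-I, 0.13 ± 0.18 (0.912), and Samhd1 -0.15 ± 0.17 (0.903). Of 22 interferon-stimulated genes, 16 had a higher mean in the mutants, against 53.5% of all genes, and 6 a lower one. Their median log2 fold change was 0.15, with 0 called by limma and 4 at an unadjusted p under 0.05, against 0.0169% and 6.51% of all genes. Mx2 stood at -0.38 in both wild types and at 0.51 and 0.73 in the mutants (limma adjusted p = 0.386). Rsad2 (0.99 ± 0.23), Ifit1 (0.88 ± 0.21) and Ifi44 (0.74 ± 0.33) were highest in mutant mouse 2, the mouse in which most AIM2 family probes were lowest.

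**Figure D5:**
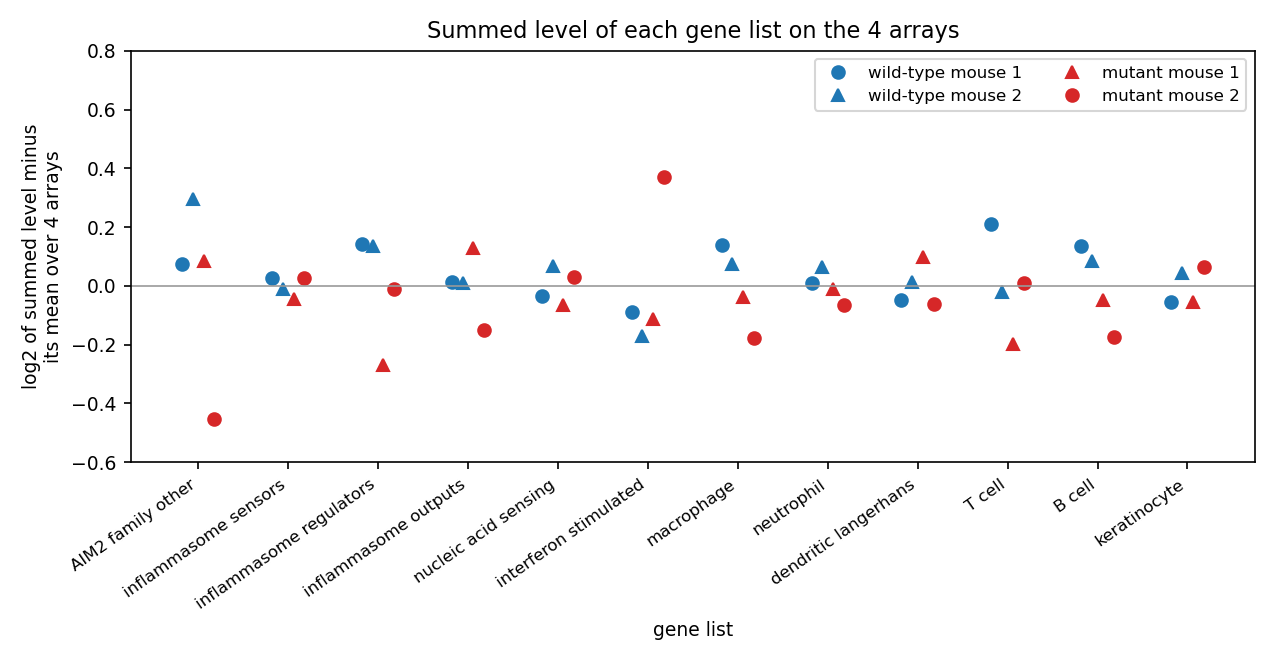
Summed linear level of the tested genes of each list on each array, as log2 minus its mean over the 4 arrays; blue marks wild-type and red mutant mice, circles wild-type mouse 1 and mutant mouse 2, triangles the other two. Mutant mouse 2 is lowest for the other AIM2 family genes, the inflammasome outputs and the macrophage, neutrophil, dendritic and Langerhans cell and B cell markers, and highest for the interferon-stimulated genes, and mutant mouse 1 is lowest for the inflammasome regulators and the T cell markers.

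Markers of the cells that could carry these transcripts were measured beside them. Neutrophil markers (9 of 11 genes tested) summed to between 6.95 and 7.08, dendritic and Langerhans cell markers (7 of 8) to between 7.44 and 7.60, B cell markers (4 of 6) to between 0.09 and 0.40 and keratinocyte markers (8 of 8) to between 10.47 and 10.59. None of these sums, nor that of the macrophage markers, had wild-type mouse 1 and mutant mouse 2 as its 2 highest arrays. The T cell sum did, with mutant mouse 2 only 0.03 above wild-type mouse 2. Since Csf3r carries most of the neutrophil sum and Siglech most of the dendritic sum, these sums say little of their other markers. Taken singly, Mpo, Cd163, Itgam, Itgax and Zbtb46 had wild-type mouse 1 and mutant mouse 2 as the 2 highest arrays. So did 5 of the 8 T cell markers (Cd8a, Lck, Cd3g, Cd5 and Cd3e), against 15.5% of all tested genes. The other macrophage, neutrophil, dendritic, B cell and keratinocyte markers did not. The part of any of these cells in the Ifi202b level was not tested.

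Promoter windows of 250 bases before to 50 after a transcription start were at hand from RefSeq (build GRCm38.p6, not the build of the arrays) for 8 of the 10 names, with 11 windows. The 250 bases before the start of the 2 genes that parted the arrays are printed to show which response elements they hold, with the capitals marking a match to one of the motifs below.
Ifi202b: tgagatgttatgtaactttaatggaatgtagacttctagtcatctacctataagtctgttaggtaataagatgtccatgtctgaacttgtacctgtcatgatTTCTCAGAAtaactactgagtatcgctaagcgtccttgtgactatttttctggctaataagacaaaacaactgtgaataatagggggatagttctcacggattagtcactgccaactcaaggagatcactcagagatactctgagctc
Aim2: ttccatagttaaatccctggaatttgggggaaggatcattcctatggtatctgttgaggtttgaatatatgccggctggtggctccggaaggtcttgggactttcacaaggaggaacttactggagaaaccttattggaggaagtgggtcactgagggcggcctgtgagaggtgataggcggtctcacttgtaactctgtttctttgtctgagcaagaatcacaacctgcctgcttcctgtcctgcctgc
The Ifi202b stretch lies at chr1:173982845-173983094 on the minus strand and the Aim2 stretch at chr1:173420354-173420603 on the plus strand. On both strands the windows were searched for the core of the interferon-stimulated response element (GAAA, any 2 bases, GAAA), for TTCNNNGAA, the gamma-activated sequence, and for a form of the NF-kB site (GGGA, any 2 bases, TTCC). The gamma-activated sequence was found in Ifi202b alone of the members, as TTCTCAGAA, and in 8.3% of 32851 windows. The response element core was found in 1 of 2 windows of Ifi203 (GAAATCGAAA) and in Ifi205 (GAAATTGAAA and, on the other strand, TTTCACTTTC), against 3.44% of all windows, and the NF-kB form in 0 member windows, against 1.47%. Ifi203 and Ifi205 share a run of 14 bases that overlaps the end of this match (gaaagctatgaaca). A match is a description of these letters and not a binding site. Other forms of the NF-kB site were not searched for, so the member windows may hold some.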

How the data were processed

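Ear RNA of 4 mice was hybridised to 4 one-colour arrays. The deposited intensities are, per the file headers, background-subtracted signals of the scanner software (Agilent Feature Extraction 10.7.3.1). The raw mean signal and local background are deposited intensities without correction. The authors' series table holds linear ratios to the array median, as found from its values. The deposited flags, 0 or 1 per spot, mark spots above background or outlying, per the file headers.

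Here 3671 control spots and outlying spots were left out, the 75th percentile of each array was subtracted from log2 intensities, and probes above background in both mice of a genotype were tested. A gene took its brightest tested probe. Genotypes were compared with limma 3.58.1 (R 4.3.3; 2 residual and 2.5 prior degrees of freedom), adjusted by Benjamini and Hochberg over 23633 genes, two-sided. On simulated data with 200 changed genes of 23633, 63% of those changed by 2 and 83% of those changed by 3, on the log2 scale, were called. Smaller changes, such as those of the tested members, were not simulated, so these shares do not apply to them. The number of arrays limits the precision. The p-values rest on the spread between 2 mice per genotype, which limma moderates toward that of all genes. Between 61.21% and 64.27% of spots were above background, and 0 were saturated. The corner damaged on 1 array and left out in 1 alternative holds rows 1 to 128 and columns 129 to 164. Alternatives were another background correction, 3 other scalings, other filters and probe summaries, another variance model, the replicate number as a block, and each mouse left out. Genes named are the members, up to 4 of each list and up to 6 near the cluster by the largest range, and the 5 closest profiles; others are marked as chosen after their values were seen. Members and lists were chosen with earlier results of these data known. Figures were drawn with matplotlib 3.10.9.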

Additional observations from a re-analysis of the deposited data

How the results depend on the processing

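The genotype comparison called 4 genes. It called 2 with quantile normalization and 2 with the percentile taken only over probes detected on every array, 1 without a filter on dim probes, 1 with probes above background on all 4 arrays and 14 with trend and robust variance. With the replicate block it called 1, and with the crossed replicate block, chosen after seeing the data because same-numbered mice deviated in opposite directions (r = -0.195 over genes), also 1. Leaving out 1 mouse gave 0 to 80 calls: 0 without wild-type mouse 1, 0 without wild-type mouse 2, 80 without mutant mouse 1 and 1 without mutant mouse 2. With normexp, the authors' table, the mean of probes or without the corner the count was within 1.5 times. In all of these settings 0 members other than Aim2 and Ifi202b were called (lowest adjusted p 0.401). The causes were not tested.

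The log2 fold change of Ifi202b (-0.01) lay between -1.45 and 1.43 and that of Aim2 (0.24) between -0.44 and 0.92 as single mice were left out. That of Ifi203 (-0.28) lay between -0.723 and 0.168, reversing to 0.0253 without wild-type mouse 2 and to 0.168 without mutant mouse 2. That of Nlrp3 (-0.15) lay between -0.315 and 0.0104, the last without wild-type mouse 1. The range of Ifi202b stayed between 2.59 and 2.95. That of Aim2 stayed between 1.33 and 1.41 except with normexp (0.70).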
